A study of Mus musculus with 12 samples.

Results

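The genes described here are the 10 that encode the NF-kB transcription factor subunits (Rela, Relb, Rel, Nfkb1 and Nfkb2) and a set of proteins that restrain or feed back on them (Nfkbia, Nfkbib, Nfkbie, Bcl3 and Tnfaip3), taken by gene symbol from a count table of 53465 genes. They were followed across 4 genotypes of mouse striatum, each with 3 libraries of total RNA sequenced after depletion of ribosomal RNA. All animals had the background labelled C57/BL6. WT carried neither change, and Q175HD carried the neo-deleted Q175 knock-in (B6J.129S1-Htttm1.1Mfc/190ChdiJ), an expanded CAG repeat placed in the mouse huntingtin gene Htt, which is the model of Huntington's disease here. SUMO-KO lacked SUMO-1, a small protein that is attached to other proteins, and Q175HD/SUMO-KO carried both changes. The labels give no age or sex, do not say how the knockout was made, and do not tell whether the 3 libraries of a genotype came from different animals. The p-values therefore cover library-to-library spread, which may be technical in part or, in Q175HD, in whole. In WT, SUMO-KO and Q175HD/SUMO-KO, reads of the X-linked transcript Xist, given below, differ too far between libraries for a single animal. In these bulk samples fewer cells of a type and less RNA per cell cannot be told apart.

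NF-kB proteins work as pairs that are held in the cytoplasm by IkB proteins. In the canonical route an IkB kinase marks IkB for destruction and frees pairs of Rela or Rel with the product of Nfkb1. In the non-canonical route the product of Nfkb2 is trimmed and enters the nucleus with Relb. Several of the genes are themselves NF-kB targets, so that newly made Nfkbia and Tnfaip3 end the response. In human cells SUMO-1 can be attached to the Nfkbia protein, and that form resists the degradation that frees NF-kB. In the brain the pathway is known from microglia and blood vessels, and also from astrocytes and neurons.

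Several of the genes carry the letters of an NF-kB site near their start, and these stretches are shown because feedback of the family on its own genes is part of the background above. RefSeq promoter windows (GRCm38.p6, 250 bases before to 50 after a start) were found for 8 of the 10 members, and 6 of these held a match to the kappa B consensus, a motif of 10 letters searched on both strands. Counted by window, the motif was present in 8 of 11 windows of the members, some of which overlap, and in 8.46% of all 32851 windows. Rela and Nfkbib held none, and Relb and Nfkb1 were not among the windows used. In the lines below the gene strand is written 5′ to 3′, capitals mark the matching letters, and overlapping matches on both strands are merged.
Nfkbia: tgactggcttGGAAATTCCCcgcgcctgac
Tnfaip3: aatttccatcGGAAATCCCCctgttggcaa
Nfkb2: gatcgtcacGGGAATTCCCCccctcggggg
Rel: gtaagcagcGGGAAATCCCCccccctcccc
Nfkbie: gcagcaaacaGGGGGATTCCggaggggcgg
Bcl3: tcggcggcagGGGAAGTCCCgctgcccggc

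These stretches lie at chr12:55492657-55492686 (Nfkbia, minus strand, match starting 29 bases upstream of the annotated start), chr10:19015403-19015432 (Tnfaip3, minus strand, 12 upstream) and chr19:46304689-46304718 (Nfkb2, plus strand, 39 upstream). The other 3 are at chr11:23771041-23771070 (Rel, minus strand, 92 upstream), chr17:45555584-45555613 (Nfkbie, plus strand, 106 upstream) and chr7:19822734-19822763 (Bcl3, minus strand, 2 bases downstream of the start). Tnfaip3 and Nfkb2 held further matches that are not printed. A match is a run of letters and not a measured binding site.

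The libraries held between 9379594 and 17226419 reads assigned to genes. Htt was at 268 ± 17.8 CPM (counts scaled to a common library size by TMM; SD, n = 3) in WT, 197 ± 8.37 in Q175HD, 276 ± 22.5 in SUMO-KO and 189 ± 29.5 in Q175HD/SUMO-KO, and differed by -0.44 on the log2 scale in Q175HD against WT (SE 0.11, edgeR adjusted p = 0.0429). Defining genes of striatal projection neurons were present throughout, with 12 of 12 tested and a summed level between 2438 and 7717 CPM. Xist, a transcript of the inactive X chromosome, had at least 18092 reads in WT 2, SUMO-KO 2 and Q175HD/SUMO-KO 2 and at most 51 in each other library, so that no Q175HD library had Xist at that level. Ddx3y, a Y-linked gene, had at most 2 reads in WT 2, SUMO-KO 2 and Q175HD/SUMO-KO 2 and at least 754 in each other library. Summed cortical neuron markers went with the WT group, at 939, 602 and 320.2 CPM in WT 1, 2 and 3 against 146 to 314 in the 9 other libraries. Among single libraries, interferon-stimulated genes were highest in Q175HD 2 (246 CPM) and meningeal fibroblast markers in Q175HD/SUMO-KO 1 (149.5 CPM). Choroid plexus markers ranged from 64.7 to 5146 CPM, with high and low libraries in each genotype.

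Levels per length were compared between the members with the authors' deposited TPM values. The inhibitor Nfkbia was highest (mean over the 12 libraries 27.7 TPM), followed by Rela (24.7), Nfkbib (17.7) and Nfkb1 (8.30), and the ranges over libraries of neighbours among the first 3 overlapped. Nfkb1, between 6.74 and 10.3 TPM, overlapped neither neighbour by rank, but Relb, ranked below Rel, reached 6.98 TPM in Q175HD 3 and so overlapped Nfkb1. Lower means were those of Rel (4.87 TPM), Relb (4.71), Nfkb2 (3.54), Tnfaip3 (3.36) and Nfkbie (2.04), again with overlapping neighbours. Bcl3 was the lowest at 0.55 TPM. In raw reads the members ranged from 342 to 533 per library for Nfkb1 down to 36 to 142 for Relb, 13 to 34 for Nfkbie and 2 to 13 for Bcl3, so changes in the last 2 are measured with little precision. Of the 10 members 9 passed the filter on low counts and were tested among 17796 genes, and Bcl3 did not.

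**Figure D1:**
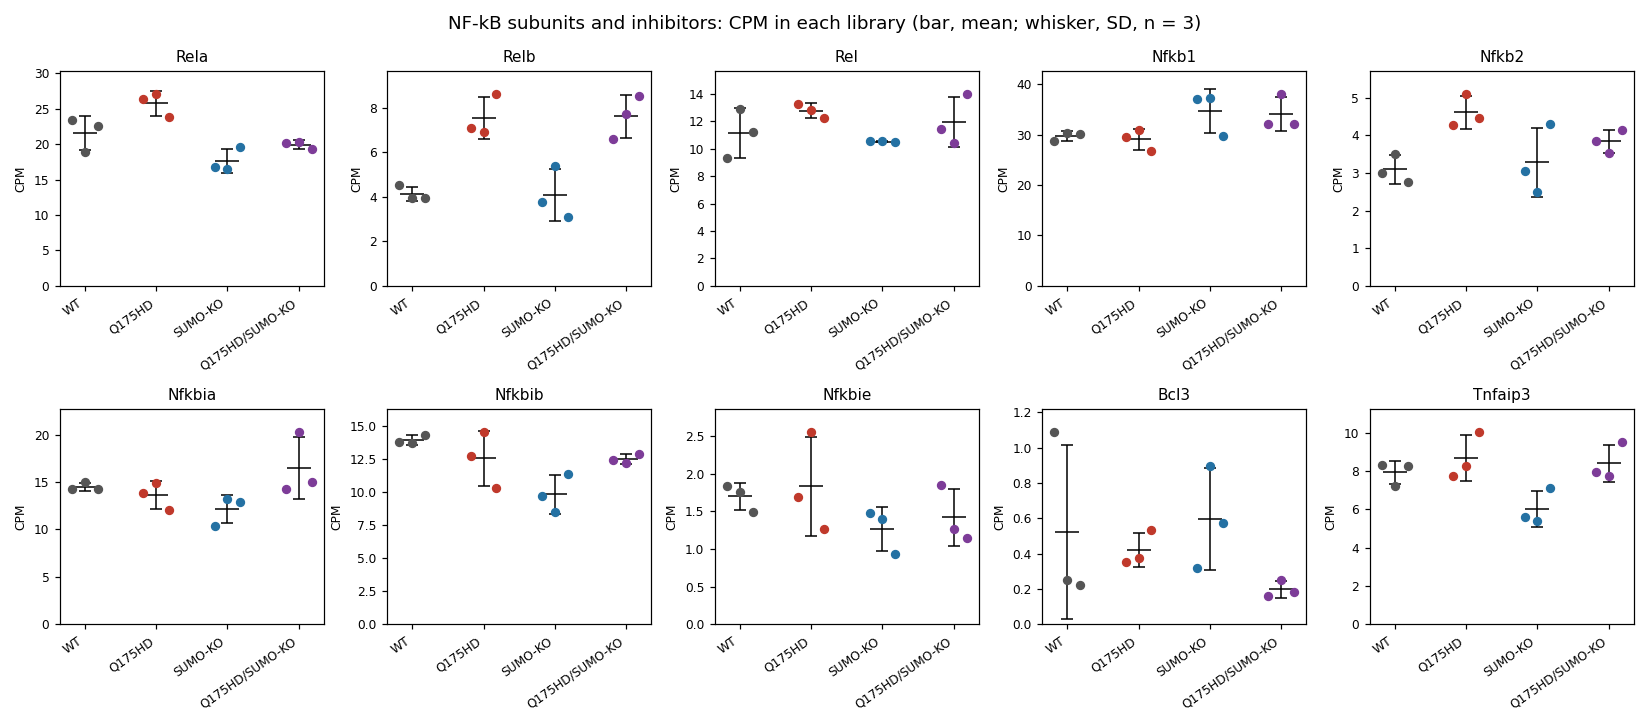
Level of each member in CPM (vertical axis) in the 3 libraries of each genotype, with points for libraries, bars for means and whiskers for SD. Relb is the panel in which the 6 knock-in libraries (6.59 to 8.64 CPM) lie wholly above the 6 others (3.08 to 5.39 CPM). The share of all genes that separate in this way is not given here.

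Relb, the subunit of the non-canonical route, was the member that rose with the Htt knock-in, both with and without SUMO-1. It lies on chromosome 7 (ENSMUSG00000002983, 19606217 to 19629438, GRCm38, GENCODE M21, minus strand), and no other annotated gene overlaps it there. Its level was 4.52, 3.94 and 3.95 CPM in WT 1, 2 and 3 and 7.09, 6.91 and 8.64 CPM in Q175HD. Without SUMO-1 it was 3.79, 5.39 and 3.08 CPM in SUMO-KO and 6.59, 7.75 and 8.53 CPM in Q175HD/SUMO-KO. All knock-in libraries were above all libraries without the knock-in, and SUMO-KO 2 was the highest of the latter. The share of all genes with such a separation is not given here, so it is a description only.

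With SUMO-1 present Relb went from 4.14 ± 0.334 to 7.55 ± 0.949 CPM (SD, n = 3 each), and the log2 fold change was 0.87 (SE 0.21, 95% interval 0.41 to 1.33, edgeR adjusted p = 0.0391; quasi-likelihood F test, Benjamini-Hochberg over all genes tested). Relb was the 1 member of 9 called in Q175HD against WT, where 3.93% of all genes tested were called. In the same comparison 3 of 10 cortical neuron markers fell (median of the list -2.06 on the log2 scale), and their part in the Relb value was not tested. In Q175HD/SUMO-KO against SUMO-KO its mean moved from 4.09 ± 1.18 to 7.63 ± 0.976 CPM, 0.91 on the log2 scale (SE 0.22, 0.45 to 1.37, edgeR adjusted p = 0.0205), again the 1 member called, beside 7.81% of all genes. These comparisons share no library, while the others named below reuse the same libraries. Averaged over SUMO-1 status the knock-in effect on Relb was 0.89 on the log2 scale, or 1.85-fold (SE 0.15, 0.56 to 1.21, edgeR adjusted p = 0.00161), and 16.9% of all genes were called in that average. This averaged call held whichever of the 12 libraries was left out, with an adjusted p of at most 0.00666. The call with SUMO-1 present was lost without any 1 of its 6 libraries (adjusted p between 0.0857 and 0.166, log2 fold change 0.76 to 0.94). In those fits the genes called in all went from 699 to between 213 and 591. The call without SUMO-1 was lost without Q175HD/SUMO-KO 3 (0.80, adjusted p = 0.0834) and without SUMO-KO 1 (0.87, adjusted p = 0.0681), and with only its 2 genotypes in the fit (0.91, adjusted p = 0.121). Among the libraries without Xist reads Relb differed by 0.83 in Q175HD against WT (edgeR adjusted p = 0.101). Without WT 1, Q175HD 2 and Q175HD/SUMO-KO 1, the libraries with the highest cortical, interferon and meningeal sums, the values were 0.99 (edgeR adjusted p = 0.259) and 1.00 (edgeR adjusted p = 0.0803), so both calls were lost and the averaged one was kept. Genes called in all were then 53 in Q175HD against WT and 428 in Q175HD/SUMO-KO against SUMO-KO.

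The size of the Relb rise was not distinguishable between animals with and without SUMO-1. The interaction, the knock-in effect without SUMO-1 minus that with it, was 0.04 for Relb (SE 0.30, 95% interval -0.61 to 0.69, edgeR adjusted p = 0.997). SUMO-1 loss on its own gave -0.03 for Relb in SUMO-KO against WT (-0.50 to 0.45) and 0.02 in Q175HD/SUMO-KO against Q175HD (-0.43 to 0.46). The double change stood 0.88 above WT on the log2 scale (SE 0.21, edgeR adjusted p = 0.0228), and Relb was the 1 member called there, beside 8.44% of all genes. That call was lost in 4 of 6 fits that left out 1 of its libraries, namely WT 1, WT 2, WT 3 or Q175HD/SUMO-KO 3 (adjusted p up to 0.0887). In the authors' deposited tables the log2 fold change of Relb was 0.87 in Q175HD against WT (adjusted p = 0.00885 by DESeq2) and 0.92 in Q175HD/SUMO-KO against SUMO-KO (adjusted p = 0.00453 by DESeq2).

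**Figure D2:**
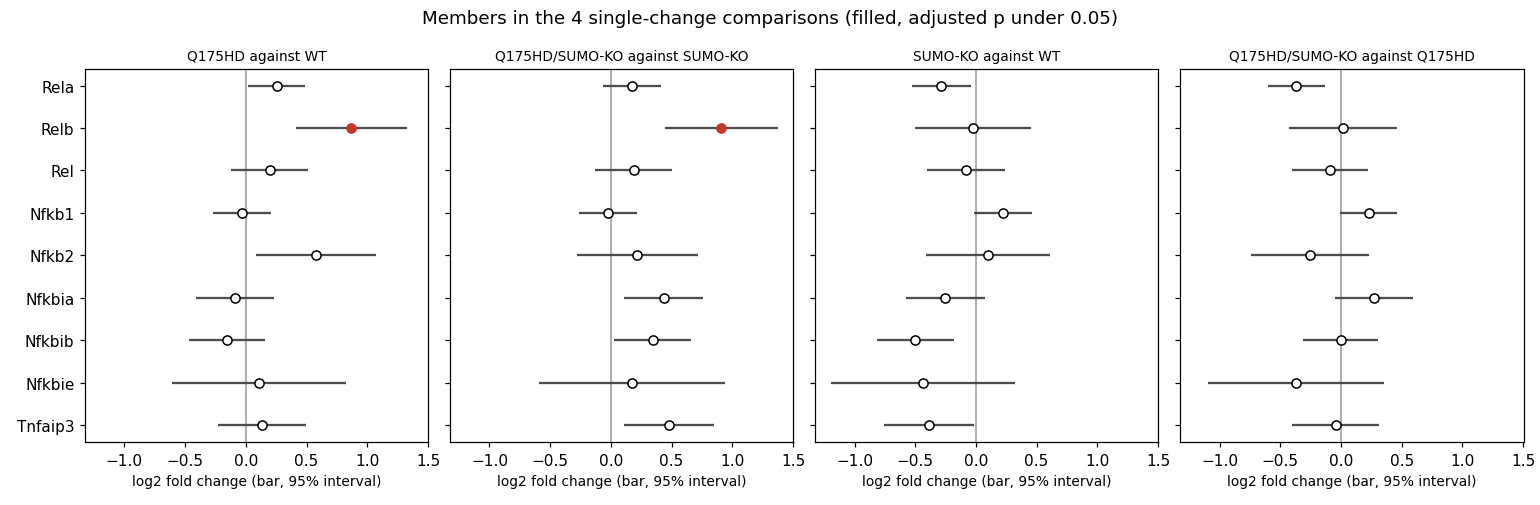
Log2 fold change (horizontal axis) of the 9 tested members in the 2 knock-in comparisons and the 2 comparisons of SUMO-1 loss, with 95% intervals; filled points have an adjusted p under 0.05. Relb, at 0.87 and 0.91, is filled in both knock-in panels, and no point is filled in the panels of SUMO-1 loss.

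The same Relb reads were also set against those of the other subunit genes, a description that does not depend on how libraries are scaled and is no further support. Relb took 6.57%, 5.66% and 5.60% of the reads of the 5 subunit genes in WT and 8.81%, 8.34% and 11.4% in Q175HD. The shares were 5.32%, 7.45% and 4.58% in SUMO-KO and 8.89%, 9.66% and 10.9% in Q175HD/SUMO-KO. No share of a knock-in library fell within the range of the others. The exact 95% binomial intervals, which cover counting error only, overlapped between neighbours, for example 7.23% to 10.6% in Q175HD 1 and 5.65% to 9.61% in SUMO-KO 2. A share is a measure of unequal change and says nothing of which gene moved.

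**Figure D3:**
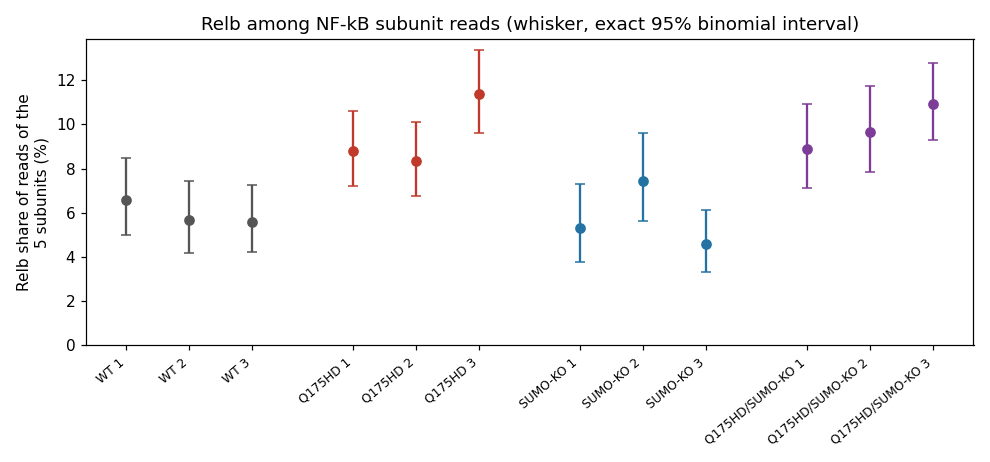
Share of Relb (%, vertical axis) in the reads of the 5 NF-kB subunit genes, by library and coloured by genotype, with exact 95% binomial intervals. The 6 knock-in libraries lie between 8.34% and 11.4% and the 6 others between 4.58% and 7.45%.

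By likeness of log2 CPM over the 12 libraries, the genes nearest to Relb were Ggact (Pearson r = 0.94), Fam126a (0.94) and Btf3 (0.93), given as a description in which the points share genotype. Ggact, an enzyme that removes gamma-glutamyl groups from amines, went from 7.64 ± 0.68 CPM in WT to 13.9 ± 0.317 in Q175HD and from 8.32 ± 2.15 in SUMO-KO to 14.7 ± 1.3 in Q175HD/SUMO-KO.

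Nfkb2, whose product pairs with Relb (chromosome 19, 46304320 to 46312385, GRCm38, plus strand), stood at 3.01, 3.52 and 2.76 CPM in WT, 4.28, 5.11 and 4.45 in Q175HD, 3.05, 2.49 and 4.30 in SUMO-KO and 3.86, 3.54 and 4.15 in Q175HD/SUMO-KO. The Q175HD libraries were above the WT libraries, while SUMO-KO 3 lay above all 3 libraries with both changes. The log2 fold change was 0.57 in Q175HD against WT (SE 0.23, edgeR adjusted p = 0.2), 0.22 without SUMO-1 (SE 0.23, edgeR adjusted p = 0.589) and 0.40 averaged (SE 0.16, 95% interval 0.05 to 0.75, edgeR adjusted p = 0.113), none of which passed. Without SUMO-KO 3 the averaged value was 0.53 and passed (edgeR adjusted p = 0.0318). Exons of Nfkb2 share 6.52% of their bases with Psd and 11.6% with a long noncoding RNA, both on the other strand, and since the counted strand is not given in the sources used here, some reads could belong to either.

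Rela, the main activating subunit of the canonical route (chromosome 19, 5637483 to 5648130, GRCm38, plus strand), was at 23.4, 18.9 and 22.5 CPM in WT, 26.4, 27.1 and 23.8 in Q175HD, 16.9, 16.6 and 19.6 in SUMO-KO and 20.2, 20.4 and 19.3 in Q175HD/SUMO-KO. Q175HD was the highest genotype and SUMO-KO the lowest, and these 2 differed by 0.54 on the log2 scale (SE 0.11, 95% interval 0.30 to 0.78, edgeR adjusted p = 0.0106). In Q175HD against SUMO-KO 2 of 9 members were called, Rela and Relb (0.89, edgeR adjusted p = 0.0227), beside 8.96% of all genes. The Rela call was lost among libraries without Xist reads (0.49, adjusted p = 0.0501) and without WT 1, Q175HD 2 and Q175HD/SUMO-KO 1 (0.50, adjusted p = 0.11). Without Q175HD 2 alone the Rela call was lost (0.50, adjusted p = 0.0556) and so was that of Relb (0.95, adjusted p = 0.059). The Relb call there was also lost without Q175HD 1, Q175HD 3 or SUMO-KO 1 (adjusted p of at most 0.0875, without Q175HD 3). With SUMO-KO 3 left out 5 members were called, with Nfkb1 (-0.36), Nfkb2 (0.73) and Tnfaip3 (0.66) added, while the genes called in all went from 1594 to 3865 of 17796.

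Neither change alone moved Rela past the threshold. The knock-in gave 0.26 with SUMO-1 present (SE 0.11, edgeR adjusted p = 0.233), 0.17 without it (SE 0.11, edgeR adjusted p = 0.367) and 0.21 averaged (SE 0.08, edgeR adjusted p = 0.0762). SUMO-1 loss gave -0.28 in SUMO-KO against WT (SE 0.11, edgeR adjusted p = 0.315), -0.37 in Q175HD/SUMO-KO against Q175HD (SE 0.11, edgeR adjusted p = 0.87), where the libraries did not overlap, and -0.33 averaged (SE 0.08, 95% interval -0.49 to -0.16, edgeR adjusted p = 0.169). The averaged loss was called by DESeq2 (-0.36, adjusted p = 0.0317), among 203 genes in all. It was also called by edgeR without SUMO-KO 3 (-0.37, adjusted p = 0.0253), among 1178 genes in all. The genes most like Rela over the 12 libraries were Slc16a14 (Pearson r = 0.92), Nploc4 (0.92) and Cdc42bpb (0.92).

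Nfkb1, the precursor of the usual partner of Rela (chromosome 3, 135584655 to 135691547, GRCm38, minus strand), lay at 29.7 ± 0.919 CPM in WT, 29 ± 2.08 in Q175HD, 34.7 ± 4.3 in SUMO-KO and 34.1 ± 3.47 in Q175HD/SUMO-KO (SD, n = 3 each). The knock-in differences were -0.03 with SUMO-1 present (95% interval -0.27 to 0.20) and -0.02 without it (-0.26 to 0.21) on the log2 scale. SUMO-1 loss gave 0.23 averaged (SE 0.08, 95% interval 0.06 to 0.39, edgeR adjusted p = 0.245), opposite in sign to the value for Rela. It passed without SUMO-KO 3 (0.28, edgeR adjusted p = 0.0408). Rel, the subunit best known from lymphocytes, was at 11.2 ± 1.81 CPM in WT, 12.8 ± 0.526 in Q175HD, 10.5 ± 0.0572 in SUMO-KO and 11.9 ± 1.84 in Q175HD/SUMO-KO, and its averaged knock-in effect was 0.19 (SE 0.10, edgeR adjusted p = 0.222).

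None of the 4 tested inhibitors was called by edgeR or DESeq2 in the 2 knock-in comparisons or the 2 of SUMO-1 loss. Of all genes tested, edgeR called 3.93% and 7.81% in the former and 0.045% and 0.0337% in the latter. Nfkbia, the IkB protein made most quickly in response to NF-kB (chromosome 12, 55489410 to 55492647, GRCm38, minus strand), was at 14.3, 15 and 14.2 CPM in WT, 13.9, 14.9 and 12.1 in Q175HD, 10.4, 13.2 and 12.9 in SUMO-KO and 14.2, 20.3 and 15 in Q175HD/SUMO-KO. The SUMO-KO mean was the lowest, though its libraries overlapped those of Q175HD, and Q175HD/SUMO-KO 2 was the highest library. The knock-in effect was -0.09 with SUMO-1 present (SE 0.15, 95% interval -0.41 to 0.23) and 0.44 without it (SE 0.15, 0.11 to 0.76, edgeR adjusted p = 0.0948). The difference between these, 0.53 (SE 0.21, 0.07 to 0.98), did not pass (edgeR adjusted p = 0.997). The genes most like Nfkbia over the 12 libraries were Camk2d (Pearson r = 0.89), Arrdc2 (0.86) and Il6ra (0.84), a receptor subunit for interleukin 6.

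Nfkbib, a slower-acting IkB protein (chromosome 7, 28758251 to 28767512, GRCm38, minus strand), was at 13.8, 13.7 and 14.4 CPM in WT and 9.69, 8.48 and 11.4 in SUMO-KO, which did not overlap. It was at 12.8, 14.6 and 10.4 CPM in Q175HD and 12.5, 12.2 and 12.9 in Q175HD/SUMO-KO. The difference between SUMO-KO and WT was -0.50 (SE 0.15, 95% interval -0.82 to -0.18, edgeR adjusted p = 0.217) and in the knock-in the same loss gave -0.0024 (SE 0.14, -0.31 to 0.31). The interaction of Nfkbib was 0.50 (SE 0.21, 0.06 to 0.94, edgeR adjusted p = 0.997). Without SUMO-KO 3 the value in SUMO-KO against WT was -0.62 and passed (edgeR adjusted p = 0.0379). Exons of Nfkbib share 14.5% of their bases with Ccer2 and 1.94% with Sirt2 on the other strand.

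Tnfaip3, the ubiquitin-editing enzyme that shuts the canonical route off upstream of the kinase, was at 8.29, 7.2 and 8.27 CPM in WT, 7.72, 8.26 and 10 in Q175HD, 5.58, 5.39 and 7.09 in SUMO-KO and 7.96, 7.75 and 9.5 in Q175HD/SUMO-KO. SUMO-KO was again the lowest genotype and did not overlap any of the other 3. The knock-in effect was 0.13 with SUMO-1 (SE 0.17) and 0.48 without it (SE 0.17, edgeR adjusted p = 0.106), with an average of 0.30 (SE 0.12, 95% interval 0.05 to 0.56, edgeR adjusted p = 0.0994). SUMO-KO against WT gave -0.39 (SE 0.17, edgeR adjusted p = 0.354). With SUMO-KO 3 left out the averaged knock-in effect was 0.37 and passed (edgeR adjusted p = 0.0452). Nfkbie was between 0.931 and 2.55 CPM in the 12 libraries, with an averaged knock-in effect of 0.14 (SE 0.24, 95% interval -0.38 to 0.66).

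Bcl3, an atypical IkB protein of the nucleus, was at most 1.09 CPM, in WT 1 with 13 reads, and its other 11 libraries had at most 9 reads. It was at 0.198 ± 0.0484 CPM in Q175HD/SUMO-KO and 0.596 ± 0.292 in SUMO-KO (SD, n = 3 each). In a fit with no filter its log2 fold change between these was -1.55 (edgeR adjusted p = 0.265). Part of its exons, 6.51% of the bases, is shared with an antisense RNA.

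Taking the members as a set, SUMO-1 loss alone produced no call. In SUMO-KO against WT 0 of 9 members were called by edgeR and 0 by DESeq2, 3 had an unadjusted p under 0.05 and 7 of 9 had a negative log2 fold change (median -0.25, against 0.02 over all genes), beside 0.045% of all genes called. In Q175HD/SUMO-KO against Q175HD 0 of 9 were called by edgeR and 0 by DESeq2, with 1 at an unadjusted p under 0.05 and a median of -0.04, beside 0.0337% of all genes. Averaged over Htt status SUMO-1 loss gave 0 calls by edgeR and 3 at an unadjusted p under 0.05, beside 0.0787% of all genes called by edgeR. DESeq2 called 1 member there, Rela, among 203 genes in all. The interaction had 0 calls by edgeR and 0 by DESeq2 among the members, 2 at an unadjusted p under 0.05, and 0% of all genes by edgeR. Of all 17796 genes, 2395 had an unadjusted edgeR p under 0.05 in SUMO-KO against WT and 939 in Q175HD/SUMO-KO against Q175HD. There were 2793 such genes in the averaged SUMO-1 loss and 770 in the interaction. Leaving out SUMO-KO 3 raised the members called from 0 to 1 in SUMO-KO against WT, from 0 to 2 in the averaged SUMO-1 loss and from 1 to 4 in the averaged knock-in effect. The genes called in all went at the same time from 8 to 1426, from 14 to 1178 and from 3001 to 3807 of 17796. For the knock-in 6 of 9 members had a positive value with SUMO-1 present (median 0.13) and 8 of 9 without it (median 0.22), against medians of 0.00 over all genes in both.

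Upstream of the subunits, 0 of 11 kinases were called by edgeR in either knock-in comparison, with 1 and 2 at an unadjusted p under 0.05 and medians of -0.01 and -0.06 on the log2 scale. The kinase, receptor and ligand counts in these 2 comparisons stand beside 3.93% and 7.81% of all genes called by edgeR. Their counts at an unadjusted p under 0.05 stand beside 3170 and 4340 of all 17796 genes. DESeq2 called 0 and 1 of the kinases, the latter being Tab3, beside 1027 and 1728 genes that it called in all. Chuk, a catalytic subunit of the IkB kinase and the one used by the non-canonical route, rose in Q175HD/SUMO-KO against WT by 0.41 (SE 0.11, edgeR adjusted p = 0.0418), from 45.7 ± 2.98 to 60.9 ± 3.11 CPM, and was at 54.0 ± 2.57 CPM in Q175HD and 57.2 ± 9.94 in SUMO-KO. It was the 1 of 11 kinases called there, beside 8.44% of all genes. Of 22 tested receptors and adaptors 0 were called in either knock-in comparison by edgeR, with 0 and 3 at an unadjusted p under 0.05 and 0 called in either by DESeq2. In the averaged effect, where 16.9% of all genes were called, 2 of the 22 rose, Tradd, an adaptor of the TNF receptor (0.59, SE 0.16, edgeR adjusted p = 0.0234), and Myd88, the adaptor of Toll-like and interleukin 1 receptors (0.53, SE 0.15, edgeR adjusted p = 0.0283). Myd88 was at 3.85 ± 0.875 CPM in WT, 4.93 ± 0.174 in Q175HD, 2.79 ± 0.428 in SUMO-KO and 4.56 ± 0.179 in Q175HD/SUMO-KO, and was called in Q175HD against SUMO-KO as well (0.81, SE 0.21, edgeR adjusted p = 0.0335). Of 12 ligands only 5 had enough reads to be tested, and 0 of these were called by edgeR or DESeq2 in either knock-in comparison, with 0 and 1 at an unadjusted p under 0.05. Tnf, Il1b and Il6 were among the 7 that were not tested. The ligand with the most reads was Il33, an alarmin, at 98.9 ± 14.4 CPM in WT, 90.7 ± 12.8 in Q175HD, 86.5 ± 11.3 in SUMO-KO and 61.8 ± 19.5 in Q175HD/SUMO-KO. The log2 difference of the last from WT was -0.68 (SE 0.20, edgeR adjusted p = 0.0585). DESeq2 called that difference, among 1816 genes in all.

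Among 14 tested further inhibitors Cyld, a deubiquitinase that opposes NF-kB activation, fell in Q175HD/SUMO-KO against SUMO-KO, from 510.5 ± 10.8 to 368 ± 48.9 CPM (log2 fold change -0.47, SE 0.13, edgeR adjusted p = 0.0377), and by 0.34 in the averaged knock-in effect (SE 0.09, edgeR adjusted p = 0.0185). Cyld was the 1 of 14 called in each, beside 7.81% and 16.9% of all genes. Of 13 tested target genes 2 rose and 0 fell in Q175HD/SUMO-KO against SUMO-KO, and the same 2 were called in the averaged effect, beside 7.81% and 16.9% of all genes. Serpina3n, a protease inhibitor of reactive astrocytes, rose from 5.19 ± 0.806 to 9.70 ± 1.48 CPM (0.91 on the log2 scale, SE 0.20, edgeR adjusted p = 0.0158). Gadd45b, a stress-response gene, rose from 8.57 ± 2.11 to 14.5 ± 2.40 CPM (0.76, SE 0.20, edgeR adjusted p = 0.0362). In Q175HD against WT 0 of the 13 targets were called by edgeR and by DESeq2, beside 3.93% of all genes called by edgeR. At an unadjusted edgeR p under 0.05 there were 2 of the 13 targets and 3170 of all 17796 genes. The other 12 of the 25 listed targets, among them the chemokines Ccl2, Cxcl1 and Cxcl10, had too few reads to be tested.

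The markers of cells in which NF-kB genes are known to be active were read beside Relb. Summed microglia markers (15 of 15 tested) ranged from 513 to 583 CPM in WT, 571 to 588 in Q175HD, 432 to 577 in SUMO-KO and 508 to 619 in Q175HD/SUMO-KO, so knock-in and other libraries overlapped, and 1 of 15 was called in the averaged knock-in effect, Ctss (0.41, SE 0.09, edgeR adjusted p = 0.0098), beside 16.9% of all genes. Summed astrocyte markers (10 of 10 tested) were 5228 to 5667 CPM in WT, 4584 to 5094 in Q175HD, 4647 to 5511 in SUMO-KO and 3771 to 4276 in Q175HD/SUMO-KO, lower in each knock-in genotype than in WT. Most of each sum was Slc1a2, at 4042 ± 167 CPM in WT, 3285 ± 205 in Q175HD, 3684 ± 225 in SUMO-KO and 2656 ± 223 in Q175HD/SUMO-KO. By log2 fold change the list was split, with 5 of 10 positive in Q175HD against WT and 4 of 10 in Q175HD/SUMO-KO against WT. In the averaged effect 1 of these 10 rose, S100b (0.56, edgeR adjusted p = 0.0123), and 2 fell, Slc1a2 (-0.39, edgeR adjusted p = 0.00358) and Fgfr3 (-0.23, edgeR adjusted p = 0.0419). Gfap, a filament protein of reactive astrocytes, was at 158 ± 31.1 CPM in WT, 247 ± 37.6 in Q175HD, 122 ± 39.1 in SUMO-KO and 187 ± 69.8 in Q175HD/SUMO-KO. Its averaged effect of 0.63 (SE 0.21, edgeR adjusted p = 0.0608) was called by DESeq2, among 3207 genes in all. Endothelial markers (12 of 12 tested, 0 called by edgeR and DESeq2 in that average and 1 at an unadjusted p under 0.05) ranged from 226 to 239 CPM in WT, 198 to 205 in Q175HD, 196 to 207 in SUMO-KO and 183 to 262 in Q175HD/SUMO-KO, so that Q175HD lay below WT. In that average 5684 of all 17796 genes had an unadjusted edgeR p under 0.05. Of 14 leukocyte markers 11 had too few reads to be tested, among them Cd3e and S100a8. Lyz2, which microglia and macrophages also make, rose in the average (0.65, edgeR adjusted p = 0.017), Cd4 fell (-0.66, edgeR adjusted p = 0.0241), and the summed leukocyte list was 61.1 to 80.7 CPM in WT, 57.4 to 69.6 in Q175HD, 67.3 to 67.6 in SUMO-KO and 29.6 to 63.2 in Q175HD/SUMO-KO, which lay below SUMO-KO. The part of these cells in the Relb value was not tested.

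Projection neuron markers separated with the knock-in, as Relb did, and the interferon list rose in part. Of 12 projection neuron markers 7 fell in Q175HD against WT and 10 in Q175HD/SUMO-KO against SUMO-KO, with sums of 6416 to 7420 CPM in WT, 3669 to 3898 in Q175HD, 6753 to 7717 in SUMO-KO and 2438 to 3894 in Q175HD/SUMO-KO. These counts stand beside 3.93% and 7.81% of all genes. Of 17 tested interferon-stimulated genes 6 rose in the averaged effect, beside 16.9% of all genes called in either direction, and their sum was 98.5 to 138 CPM in WT, 123 to 246 in Q175HD, 84.5 to 104 in SUMO-KO and 119 to 173 in Q175HD/SUMO-KO, with overlap between WT and both knock-in genotypes. Whether either list bears on Relb was not tested.

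**Figure D4:**
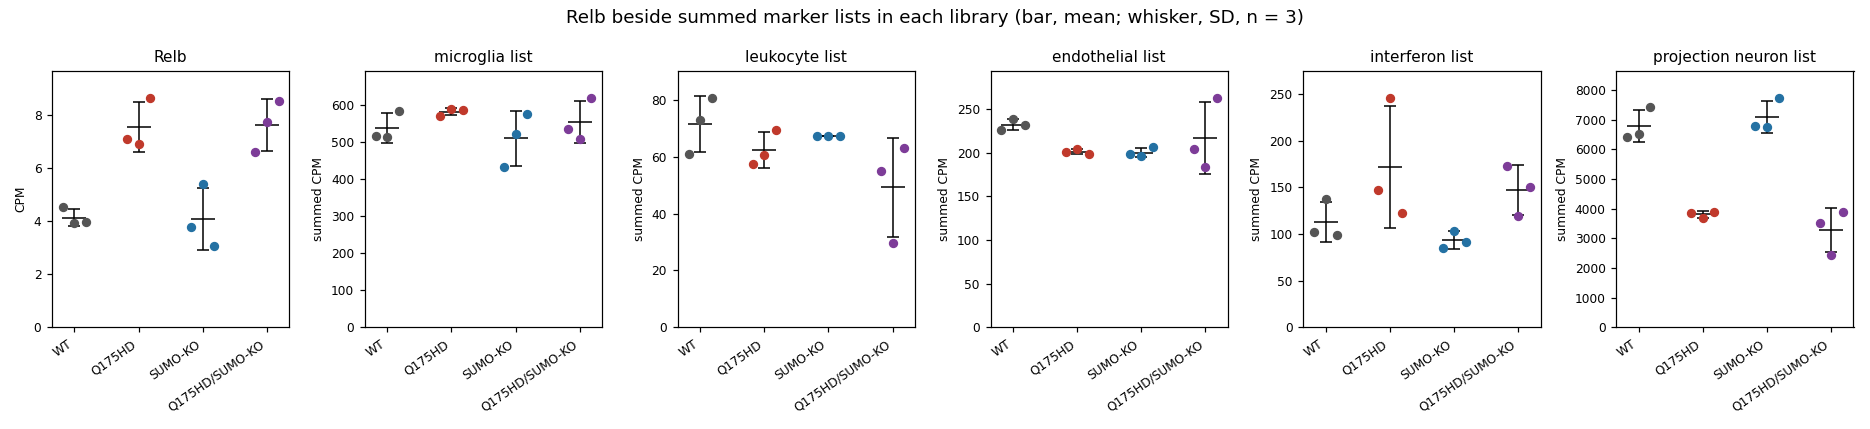
Relb in CPM and the summed CPM of 5 marker lists (vertical axes) in each library by genotype, with means and SD. Relb is higher in all knock-in libraries, projection neuron markers are lower in all of them (at most 3898 against at least 6416 CPM), and microglia sums overlap within each knock-in pair. Endothelial sums are lower in Q175HD than in WT. Leukocyte sums, made up mostly of Cd4, are lower in Q175HD/SUMO-KO than in SUMO-KO. Lyz2 and Cd52 have higher means there, so the sum does not measure leukocytes as a whole.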

How the data were processed

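The raw table holds the authors' deposited read counts per Ensembl gene, without normalization, and it had 0 columns of other series. The authors' deposited TPM values were used to compare levels between genes, and the gene lengths by which the authors divided are not stated. The deposited comparison tables hold the authors' DESeq2 log2 fold changes, p-values and adjusted p-values, per the file headers. Tools listed in the submitters' processing notes are STAR 2.5.2a, cutadapt 2.10, DESeq2 and Bowtie 1.1.2, with mm10 and GRCm38 as builds. The gene counter is not given in the sources used here, nor is the strand counted.

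Counts of all genes were fitted with edgeR 4.0.16 (R 4.3.3; filterByExpr with minimum count 10 and total 15, TMM, robust quasi-likelihood, 4 group means over 12 libraries, 9 contrasts, common BCV 0.171). Calls needed an adjusted p under 0.05 (Benjamini-Hochberg). SE is the log2 fold change divided by the square root of F. Other settings included DESeq2 1.42.0, a replicate block and leaving out each library. The members and lists were chosen with earlier results of these data known. All members were named, as were up to 4 called genes per direction of each pathway list and the 3 genes most like a called member or Nfkbia (mean count of at least 50); of ligands, none called by edgeR, the gene with the most reads. Protein sequences were not used here. Replicates differed beyond sampling noise, with a chi-square per degree of freedom of at least 8.86. Replicate numbers were not treated as pairs. Where libraries of a gene are said not to overlap between genotypes, the share of all genes that do the same is not given. The level of the knocked-out gene is not reported here.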

Additional observations from a re-analysis of the deposited data

How the results depend on the processing

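Relb kept a positive log2 fold change under every alternative run for the 4 pairwise comparisons of a genotype with the knock-in and one without it, and its averaged knock-in call passed in 12 of 12 fits that left out 1 library and in 8 of 8 others. Of the member values under other settings, 1206 kept their direction and side of the threshold, 27 lost and 12 gained a call, and 87 changed sign, none of them called in the main analysis. The cause of these changes was not tested.

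The number of members called, with libraries left out in turn, was 0 in Q175HD against WT, 0 to 2 in Q175HD/SUMO-KO against SUMO-KO, 0 to 1 in Q175HD/SUMO-KO against WT, 0 to 5 in Q175HD against SUMO-KO, 0 to 1 in SUMO-KO against WT, 1 to 4 in the averaged knock-in effect and 0 to 2 in the averaged SUMO-1 loss. Genes called in all in those fits were 213 to 591 in Q175HD against WT (699 with all libraries), 756 to 2396 (1389) in Q175HD/SUMO-KO against SUMO-KO and 690 to 1156 (1502) in Q175HD/SUMO-KO against WT. They were 504 to 3865 (1594) in Q175HD against SUMO-KO, 0 to 1426 (8) in SUMO-KO against WT, 2033 to 3807 (3001) in the averaged knock-in effect and 2 to 1178 (14) in the averaged SUMO-1 loss. Among libraries without Xist reads the members called were 0 in Q175HD against WT (369 genes in all), 0 in Q175HD/SUMO-KO against WT (459) and 1 in Q175HD against SUMO-KO (697). With only the groups compared they were 0 in Q175HD/SUMO-KO against SUMO-KO (373 genes in all) and 1 in Q175HD against SUMO-KO (1092). Without WT 1, Q175HD 2 and Q175HD/SUMO-KO 1, 3 libraries chosen after seeing the data, they were 0 in all 4 of these pairs. Libraries with high choroid plexus sums were kept there, such as Q175HD 1 (5146 CPM). Genes called in all were then 53 in Q175HD against WT, 428 in Q175HD/SUMO-KO against SUMO-KO, 211 in Q175HD/SUMO-KO against WT and 210 in Q175HD against SUMO-KO. DESeq2 called 1 member in the averaged SUMO-1 loss. Over all genes DESeq2 called 250 in SUMO-KO against WT (8 by edgeR), 19 in Q175HD/SUMO-KO against Q175HD (6), 203 in the averaged SUMO-1 loss (14) and 31 in the interaction (0), and edgeR without a filter called 119, 18, 133 and 2.

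Sign changes in near-zero log2 values were as follows. With the term for Xist, Nfkb1 was 0.018 in Q175HD against WT and -0.045 in the interaction, Relb -0.0019 in the interaction and -0.045 in Q175HD/SUMO-KO against Q175HD, Nfkbib 0.040 and Tnfaip3 0.021 in that comparison, and Nfkbia -0.036 in the averaged SUMO-1 loss. Among libraries without Xist reads, Nfkb1 was -0.038 in the interaction, Nfkbib 0.016 and Tnfaip3 0.011 in Q175HD/SUMO-KO against Q175HD, Rel 0.029 in SUMO-KO against WT, and Rel 0.012, Nfkb2 0.079 and Nfkbia -0.092 in the averaged SUMO-1 loss. Without the 3 libraries, Nfkbie was -0.14, -0.063 and -0.10 in the 2 knock-in comparisons and their average, Nfkb1 0.015 in Q175HD/SUMO-KO against SUMO-KO, Nfkbib 0.12 in Q175HD/SUMO-KO against Q175HD, Rel 0.14 in the interaction, and Relb 0.044 in SUMO-KO against WT and 0.047 in the averaged SUMO-1 loss. Under DESeq2, median-ratio size factors and no filter, Relb was -0.017, -0.017 and -0.032 in Q175HD/SUMO-KO against Q175HD, Nfkbia -0.020, -0.016 and -0.033 in the averaged SUMO-1 loss, and Nfkb1 -0.0017, -0.0096 and -1e-04 in the interaction, where a mean count of at least 50 gave -0.0070.

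With libraries left out in turn, log2 values that changed sign ranged as follows. Relb went from -0.27 to 0.15 in SUMO-KO against WT, -0.11 to 0.13 in Q175HD/SUMO-KO against Q175HD, -0.14 to 0.29 in the interaction and -0.13 to 0.085 in the averaged SUMO-1 loss. Rela went from -0.15 to 0.0027 in the interaction. Rel went from -0.20 to 0.033 in SUMO-KO against WT, -0.072 to 0.22 in Q175HD/SUMO-KO against WT and -0.16 to 0.11 in the interaction. Nfkb1 went from -0.078 to 0.023 in Q175HD against WT, -0.13 to 0.031 in Q175HD/SUMO-KO against SUMO-KO and -0.095 to 0.064 in the interaction. Nfkb2 went from -0.16 to 0.26 in SUMO-KO against WT and -0.21 to 5e-04 in the averaged SUMO-1 loss. Nfkbia went from -0.075 to 0.059 in the averaged SUMO-1 loss, and Nfkbib from -0.12 to 0.12 in Q175HD/SUMO-KO against Q175HD. Nfkbie went from -0.20 to 0.32 in Q175HD against WT, -0.061 to 0.30 in Q175HD/SUMO-KO against SUMO-KO, -0.17 to 0.37 in the interaction and -0.015 to 0.25 in the averaged knock-in effect. Tnfaip3 went from -0.18 to 0.075 in Q175HD/SUMO-KO against Q175HD and -0.057 to 0.14 in Q175HD/SUMO-KO against WT.

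Deviations from the group mean were correlated (r over 0.1) in 11 of 18 pairs of libraries with the same replicate number, with r from -0.23 to 0.57. Pairs of unlike number were not compared, so these values have no baseline. The pairs share libraries, and WT 2, SUMO-KO 2 and Q175HD/SUMO-KO 2 are also the libraries with Xist reads. The labels do not say that a number marks a shared litter or day, and for that reason the main fit had no pairing. With a replicate block 1 member was called in Q175HD against WT, 1 in Q175HD/SUMO-KO against SUMO-KO, 1 in the averaged knock-in effect and 3 in Q175HD against SUMO-KO, where Tnfaip3 was added (0.53, edgeR adjusted p = 0.0428). Depth limits Nfkbie, at 13 to 34 reads, and Bcl3, at 2 to 13.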
